A study of Rattus norvegicus with 6 samples.

Results

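The genes described here encode the machinery that copies chromosomal DNA. They are 43 genes of origin licensing, the replicative helicase, the polymerases, the sliding clamp, Okazaki fragment processing and deoxynucleotide supply, chosen by gene symbol, and all 43 of 43 were found among the 19266 genes of the deposited table. The RNA came from rat bone marrow mesenchymal stem cells of the line SCSP-402, labelled wild type, sequenced as poly(A)-selected, strand-marked paired-end libraries. 3 libraries came from stem cells co-cultured with BV2 cells and stimulated with LPS (lipopolysaccharide, the bacterial cell wall component sensed by toll-like receptor 4), and 3 from the same co-culture left without LPS. BV2 is a mouse microglial cell line that both groups had beside the stem cells. The labels used here give no LPS dose or time, place all 6 libraries in 1 batch and do not say whether the replicates were separate cultures. The p-values thus speak to the scatter among these 6 libraries, part or all of which could be technical.

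A cell copies its genome once per division. In G1 phase the origin recognition complex, with Cdc6 and Cdt1, loads the ring of Mcm2 to Mcm7 onto origins, and geminin blocks Cdt1 once S phase has begun. Cdc45 and the GINS complex then join the MCM ring to form the working helicase, after which polymerase alpha-primase lays primers, polymerases delta and epsilon extend them on the PCNA clamp, and Fen1 and Lig1 join the Okazaki fragments. Many of these genes are known E2F targets whose RNA rises as cells pass from G1 into S phase, so their level in a culture is commonly read as a sign of how many cells are cycling. The libraries hold bulk RNA, so more cycling cells and more RNA per cell cannot be told apart, and DNA synthesis itself was not measured.

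Totals ran from 77.4 M to 82.0 M deposited count units per library, which corresponds to 19.3 M to 20.5 M fragments if 1 fragment is worth 4 units. Untreated replicate 1 stood apart from its group. Beyond counting noise, 34.4% and 34.6% of tested genes with enough fragments differed between it and untreated replicates 2 and 3. The share was 18.9% between replicates 2 and 3. Counting noise was taken as Poisson, with 1 fragment worth 4 units and an unadjusted p under 0.05, so these shares depend on that assumption. Of 10 markers of mesenchymal stromal cells 9 were above 1 FPKM in every library, led by Col1a1, Col1a2, Itgb1 and Thy1, and Lepr was below 1 FPKM in all. They summed to between 13834 and 14025 FPKM with LPS and between 17490 and 19262 FPKM without, most of it Col1a1 and Col1a2. The markers did not move together: Col1a1, Col1a2 and Itgb1 fell, Cd44 did not pass, and Pdgfra, Nt5e, Eng, Pdgfrb and Thy1 rose, Pdgfra most at 2.9-fold (adjusted p = 0.000310). All 4 endothelial markers and the 3 haematopoietic markers in the table were below 1 FPKM. Of 16 microglia and macrophage markers 15 were in the table, and 12 of these were below 1 FPKM in every library, among them Ptprc, Aif1, Itgam, Cx3cr1, C1qa, C1qb and Csf1r. Tmem119, which stromal cells also express, and Lyz2 were among the others. The 15 markers summed to between 88.4 and 89.9 FPKM with LPS and between 83.1 and 85.7 FPKM without, most of it Tmem119. These markers are rat genes, and whether RNA of the mouse BV2 cells would be counted in them was not tested. The part of cell makeup and of untreated replicate 1 in the results was not tested, other than by leaving that library out.

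With LPS, RNA of the replication machinery was higher almost throughout. Of the 43 members, 34 rose, 1 fell and 8 did not pass the test (edgeR's quasi-likelihood test on the counts, Benjamini-Hochberg adjusted p under 0.05 over 11559 tested genes). The members that rose were 79.1% of the list, where 20.1% of all tested genes were called higher. The member that fell, Orc2, was 2.33% of the list, where 19% of all tested genes were called lower. The median log2 fold change of the members was 0.54, against 0.00 for all tested genes, and 8.75% of tested genes had a log2 fold change above that median. The changes were moderate. They ran from -0.23 for Orc2 to 1.10 for Rrm2, and Rrm2 alone was called at least 2-fold higher, as were 2.6% of all tested genes. At least 1.5-fold rises were called for 20 members, while 7.54% of all tested genes were called with such a rise.

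**Figure D1:**
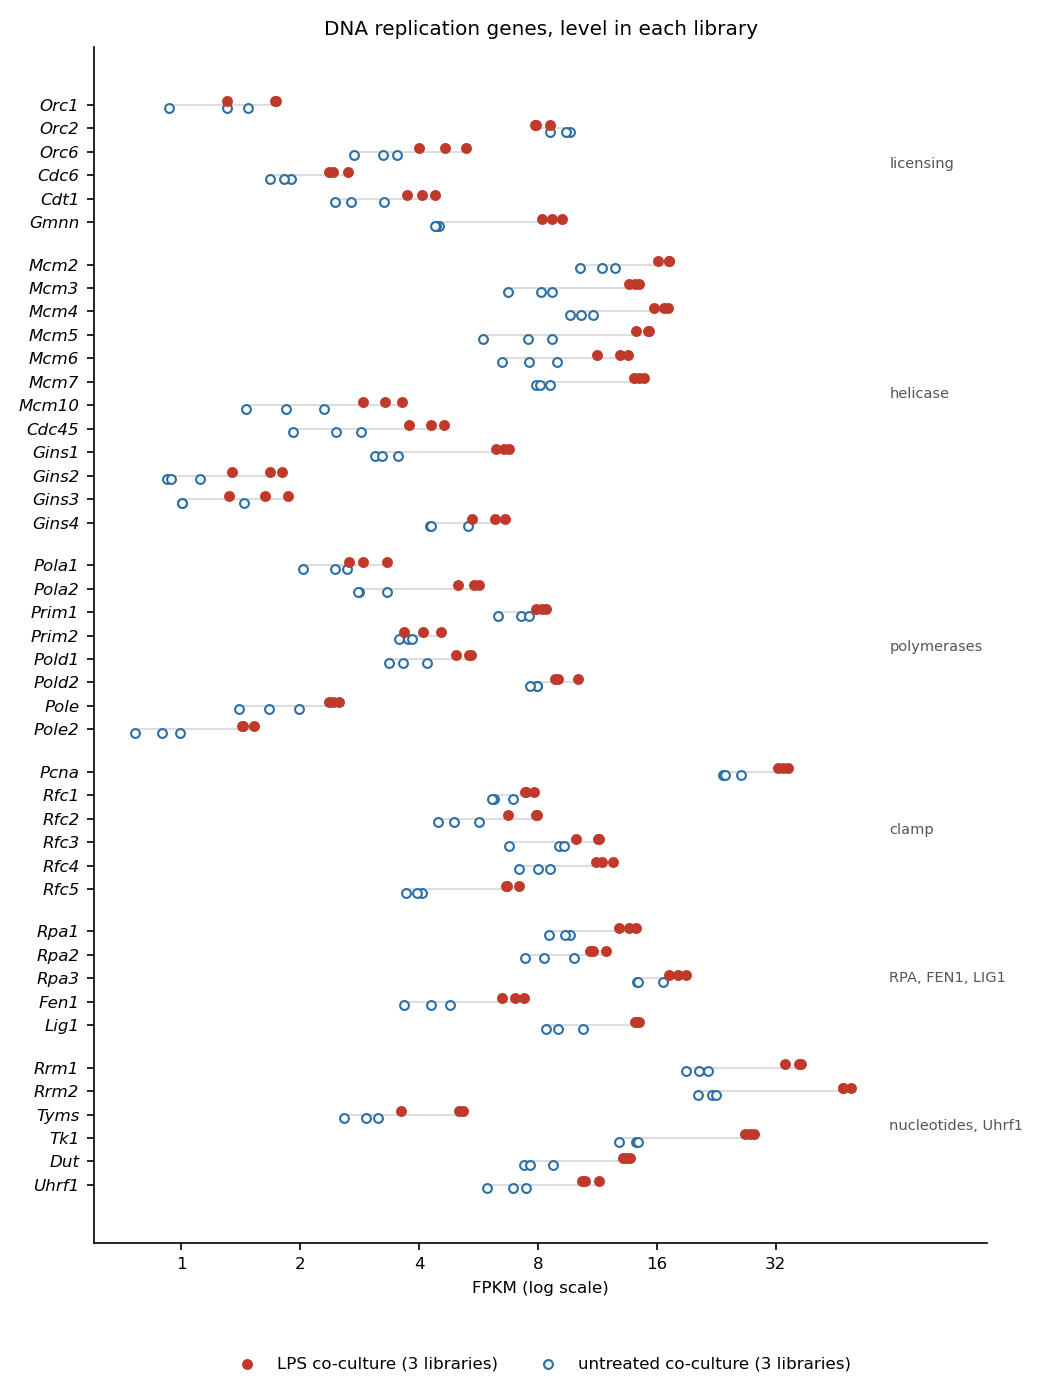
FPKM of the 43 replication genes in each library on a log axis, grouped by role, with filled red points for the 3 LPS libraries and open blue points for the 3 untreated libraries. The LPS points lie above all untreated points for 39 genes and below them for Orc2.

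In FPKM (fragments per kilobase per M fragments) no untreated library reached the lowest LPS library for 39 of the 43 members, or 90.7%, where 32.8% of all tested genes were separated in this way. The LPS libraries lay below for 1 member, Orc2, where 20.6% of all tested genes were. The groups overlapped for Orc1, Gins3 and Prim2. Summed over the 43 members, the level was 469, 466 and 455 FPKM in the LPS libraries, against 274, 305 and 308 FPKM in the untreated libraries, a ratio of means of 1.57. Untreated replicate 1 held the lowest of the 3 untreated values for 34 of the 43 members, where this was so for 33.8% of all tested genes. In these genes it lay further from the LPS libraries than the other untreated libraries did. Over all tested genes with enough fragments, 50.9% to 55.6% differed beyond counting noise between it and the LPS libraries. For untreated replicates 2 and 3 the shares were 55.4% to 59.5%. With untreated replicate 1 left out, 31 members rose, the fall of Orc2 did not pass (adjusted p = 0.0739), and the median member stood at 0.52 on the log2 scale. The filter on low values (FPKM of at least 1 in at least 3 libraries) kept all 43 members, of which Orc1, Gins2 and Pole2 would not have passed on their untreated values alone.

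**Figure D2:**
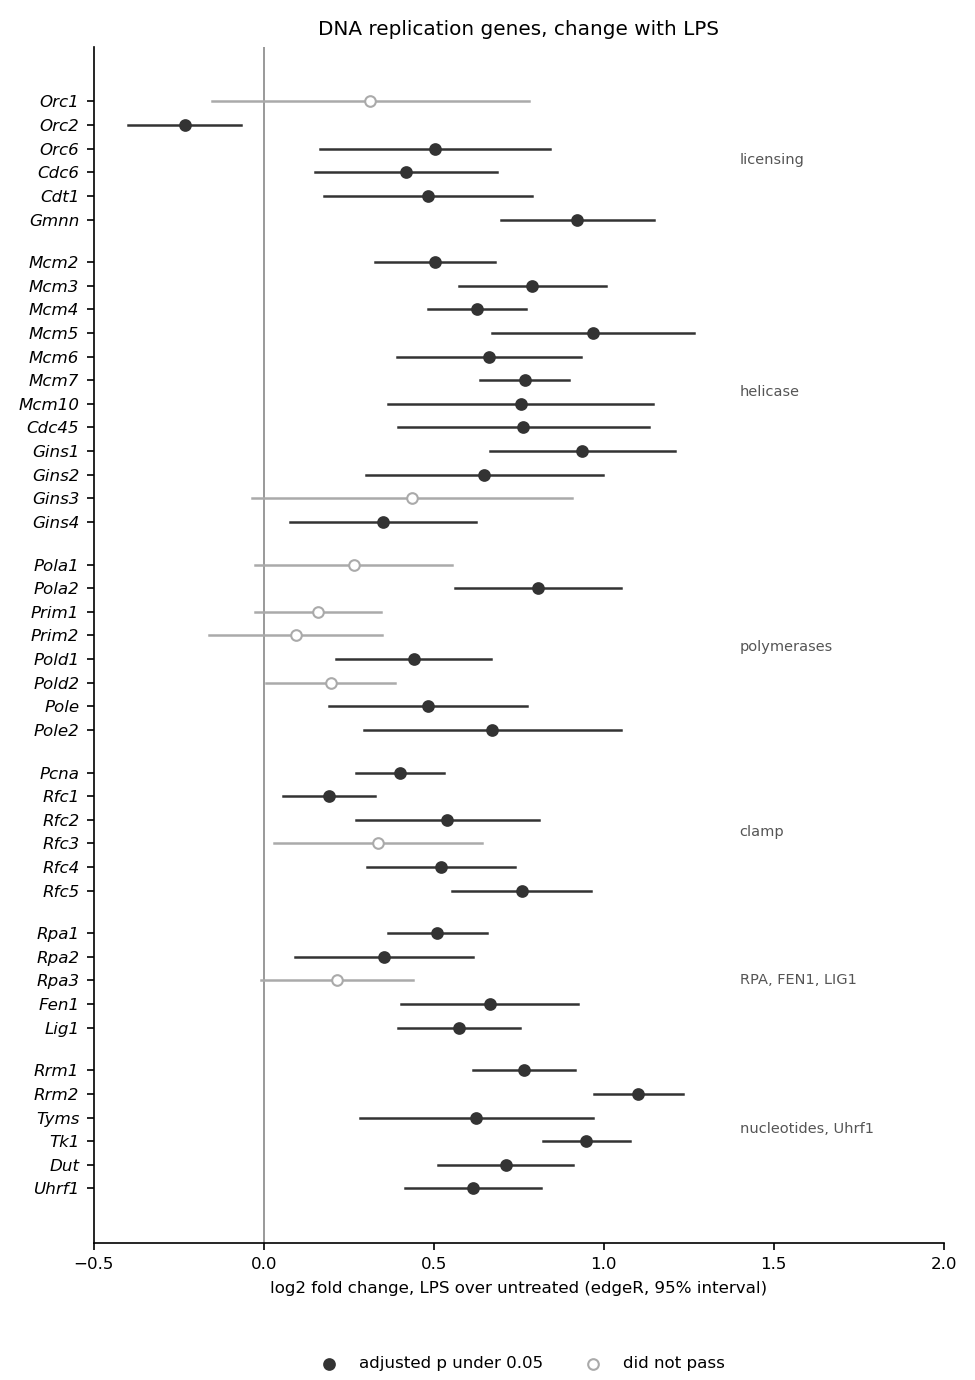
Log2 fold change of each replication gene, LPS over untreated, with its 95% interval from the edgeR fit. Filled points have an adjusted p under 0.05, and the 8 open points, 4 of them among the polymerases, did not pass.

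The call of a rise was the same in all alternatives that tested the gene for 26 of the 34 members, and the other 8, which were Orc6, Cdc6, Cdt1, Gins4, Pole, Rfc1, Rpa2 and Tyms, lost it in at least 1. Strand use in the counting is not given in the sources used here, and 7 members overlap another gene of the table: Mcm7 shares 4160 bases with Cops6 on the opposite strand, and Gins2, Gins4, Pola2, Pole, Lig1 and Tk1 overlap other genes. RefSeq names copies or pseudogenes of 14 members, among them Pcna, Rpa3, Tk1, Rfc4, Rfc5 and Rrm2, and reads shared with these are uncertain.

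The promoters of these genes are shown because the members moved together and many are known E2F targets. RefSeq windows of the build GRCr8, from 250 bases before to 50 bases after each start, were at hand for 37 of the 43 members. They were searched on both strands for the letters TTCCCGC and for its variants: TTCGCGC (variant), TTGCCGC (variant) and TTGGCGC (variant), all close to the E2F consensus. Of the 37 members 25 (67.6%) had at least 1 match, against 10.6% of all 27457 genes with a window and 19.1% of the 8688 tested genes with one. The 49 matches, in which overlapping matches on opposite strands count separately, lay within 60 bases of the start in 35 cases. CCAAT, the letters bound by NF-Y, was found in 62.2% of members' windows, against 39.4% of those of tested genes. The GC box GGGCGG was found in 67.6% of members' windows and in 66.3% of those of tested genes. A match is a description of these letters and not a measured binding site.

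**Figure D3:**
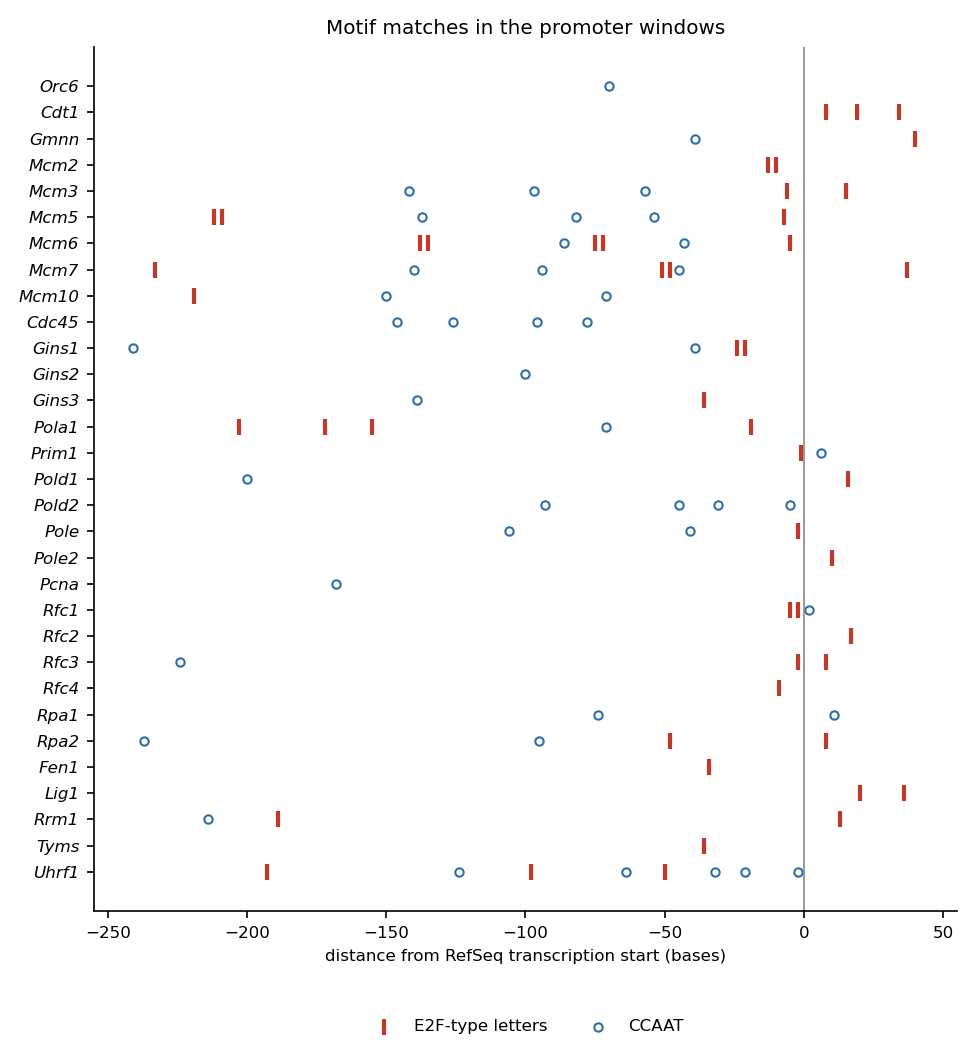
Position of E2F-type letters (red bars) and CCAAT letters (blue circles) relative to the RefSeq transcription start, in bases, for the members with at least 1 of them. In Mcm2, Mcm3, Mcm5 and Mcm6 a red bar lies within 60 bases of the start.

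Among the members that rose 70% of windows held E2F-type letters (21 of 30), and among those that did not pass 4 of 6 did. Across all tested genes with a window the share was 20.3% for genes higher with LPS and 16.8% for genes lower with LPS. It was 19.5% for genes that did not pass, close to that of the higher genes. A site within 60 bases of the start is shown for each of 5 MCM subunits and for Gins1, Cdt1 and Gmnn, which rose, and for Prim1 and Pola1, which did not pass. Each has 30 bases on the strand of the gene in GRCr8, with the 7 letters of 1 match, in either orientation, in capitals. The stretches of Mcm2, Mcm7, Gins1 and Cdt1 each hold a second match, which is not capitalised beyond any overlap. The Mcm2, Gins1 and Mcm7 sites are palindromic or nearly so.
Mcm2 (chr4:122918089-122918118, minus strand): gtgacccggttTTCGCGCgaaaacccgtgg
Mcm3 (chr9:30733734-30733763, minus strand): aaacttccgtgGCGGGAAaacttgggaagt
Mcm5 (chr19:13488795-13488824, plus strand): caggttggtttTTCCCGCgaaagtcggctt
Mcm6 (chr13:42404339-42404368, minus strand): accagaggagcGCGCGAAgcggtggcgcgg
Mcm7 (chr12:22163208-22163237, minus strand): gacgacgtttcGCGCCAAtttcggttggag
Gins1 (chr3:160184885-160184914, plus strand): gttaagcctatTTGGCGCcaaagagaggag
Cdt1 (chr19:67529245-67529274, plus strand): ccgcgaaaattGCGCGAAatccgcgggaag
Gmnn (chr17:40729854-40729883, plus strand): tctgcaggttcgggtcgttTTGGCGCggtt
Prim1 (chr7:1031450-1031479, plus strand): gtcctgtgctgTTCCCGCcaattctcgtgt
Pola1 (chrX:62342356-62342385, minus strand): tttcgggctggTTGGCGCggaatcggtaga

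The 120 bases before the start of Mcm6 and Mcm7 show how the letters combine, with E2F-type, CCAAT and GC box letters in capitals on either strand. The capitals that end the Mcm6 stretch begin the site printed for that gene. Both stretches hold 2 overlapping E2F-type matches and 2 CCAAT matches, and in Mcm7 an E2F-type and a CCAAT match run into each other.
Mcm6 (chr13:42404353-42404472, minus strand): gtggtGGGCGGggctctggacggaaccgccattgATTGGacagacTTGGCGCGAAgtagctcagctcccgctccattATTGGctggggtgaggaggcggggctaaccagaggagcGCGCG
Mcm7 (chr12:22163179-22163298, minus strand): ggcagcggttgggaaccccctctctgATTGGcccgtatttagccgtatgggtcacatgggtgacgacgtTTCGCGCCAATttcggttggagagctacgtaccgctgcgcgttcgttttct

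Of the 6 licensing genes 4 rose (66.7%), 1 fell (16.7%) and 1 did not pass. Among all tested genes 20.1% were called higher and 19% lower. The largest rise was that of Gmnn, which encodes geminin, the inhibitor of Cdt1. Gmnn (ENSRNOG00000018782, chromosome 17 from 40301808 to 40310054 in mRatBN7.2) had 8.68, 9.22 and 8.19 FPKM in the LPS libraries, against 4.5, 4.41 and 4.38 FPKM in the untreated libraries. The groups were far apart relative to their spread, and the gene rose 1.9-fold (log2 fold change 0.92 ± 0.098 SE, adjusted p = 0.000271 by edgeR). Cdt1, the loading factor that geminin binds, had 3.72, 4.38 and 4.07 FPKM in the LPS libraries, against 2.46, 2.68 and 3.27 FPKM in the untreated libraries. It rose less, 1.4-fold (adjusted p = 0.0211), and lost its call without untreated replicate 2, LPS replicate 2 or LPS replicate 3 (adjusted p up to 0.0781).

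Cdc6, the ATPase that joins ORC to load the MCM ring, had 2.64, 2.42 and 2.36 FPKM in the LPS libraries, against 1.67, 1.89 and 1.81 FPKM in the untreated libraries. It rose 1.34-fold (adjusted p = 0.0222), with the groups separate, and lost its call without untreated replicate 1, untreated replicate 3 or LPS replicate 1 (up to 0.0776). Orc6, the smallest ORC subunit, had 4.0, 5.27 and 4.65 FPKM in the LPS libraries, against 3.23, 2.74 and 3.51 FPKM in the untreated libraries. It rose 1.42-fold (adjusted p = 0.0270), a call that was lost without untreated replicate 2, LPS replicate 2 or LPS replicate 3 (up to 0.0977). Orc1, the subunit whose protein is known to cycle in human cells, had 1.72, 1.3 and 1.73 FPKM in the LPS libraries, against 0.927, 1.47 and 1.3 FPKM in the untreated libraries, so its groups overlapped and it did not pass (log2 fold change 0.31, 95% interval -0.15 to 0.78, adjusted p = 0.259). Orc2, a core subunit, had 8.56, 7.85 and 7.92 FPKM in the LPS libraries, against 9.66, 9.39 and 8.59 FPKM in the untreated libraries. Every LPS value lay below every untreated value, by a small margin, and the gene was 1.17-fold lower (log2 fold change -0.23 ± 0.073 SE, adjusted p = 0.0339). That fall was lost in 7 of 17 alternatives, namely limma on the FPKM values with either pseudocount, the test with no filter, and leaving out untreated replicate 1, untreated replicate 2, LPS replicate 2 or LPS replicate 3 (adjusted p up to 0.104).

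Of the 12 helicase genes 11 rose (91.7%, against 20.1% of all tested genes) and 1 did not pass. All 12 had their lowest untreated value in untreated replicate 1, as had 33.8% of all tested genes. The 6 subunits of the MCM ring rose between 1.42-fold for Mcm2 and 1.96-fold for Mcm5, each in all alternatives run. Mcm5 (ENSRNOG00000014336, chromosome 19 from 13483066 to 13504389 in mRatBN7.2) had 15.2, 15.3 and 14.2 FPKM in the LPS libraries, against 5.81, 7.55 and 8.67 FPKM in the untreated libraries. The untreated libraries spread widely here, but the lowest LPS value was well above the highest of them (log2 fold change 0.97 ± 0.13 SE, adjusted p = 0.000728). Mcm2, the most abundant subunit, had 17.2, 17.2 and 16.1 FPKM in the LPS libraries, against 10.2, 11.6 and 12.5 FPKM in the untreated libraries. Its groups were separate too, its rise was the smallest of the ring (log2 fold change 0.50 ± 0.077 SE, adjusted p = 0.00140), and its untreated level was the highest.

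Mcm3 averaged 14 ± 0.429 FPKM with LPS and 7.84 ± 1.02 FPKM without, Mcm4 16.5 ± 0.681 FPKM with LPS and 10.3 ± 0.689 FPKM without, Mcm6 12.6 ± 1.14 FPKM with LPS and 7.67 ± 1.23 FPKM without and Mcm7 14.4 ± 0.443 FPKM with LPS and 8.19 ± 0.342 FPKM without (SD, n = 3 each). The proteins form a ring with 1 copy of each, and the FPKM levels of the 6 RNAs lay close together in both groups. The most abundant subunit stood at 1.28, 1.33 and 1.42 times the least abundant in the LPS libraries, against 1.76, 1.54 and 1.46 times in the untreated libraries, so the subunits were nearer to each other in every LPS library. Mcm5 made up 16.7% ± 0.0940 of the summed FPKM of the ring with LPS and 13.8% ± 1.26 without. Mcm2 made up 18.9% ± 0.0518 with LPS and 21.7% ± 0.231 without (SD, n = 3 each). Neither share was tested.

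**Figure D4:**
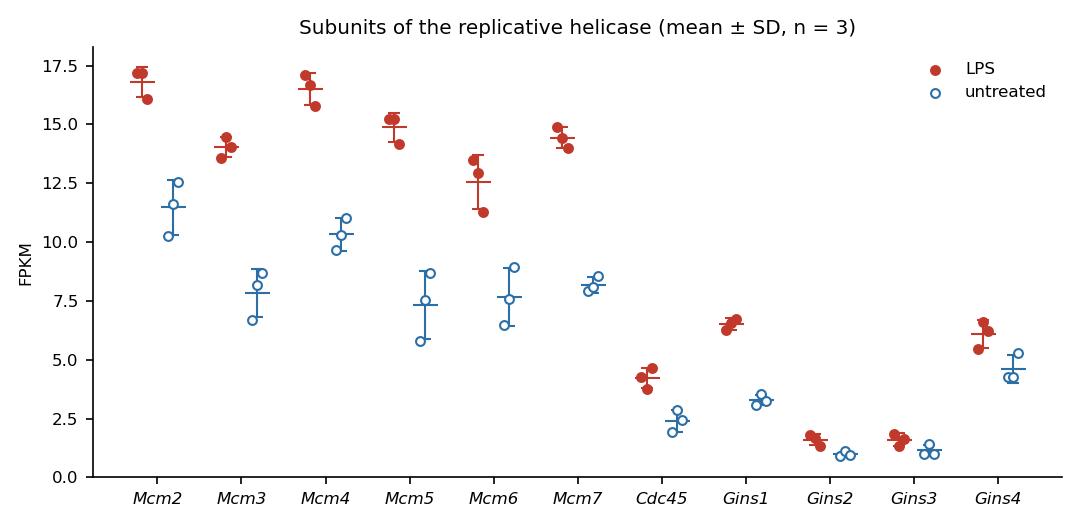
FPKM of the MCM ring, Cdc45 and the GINS subunits in each library on a linear axis from 0, LPS in red left of untreated in blue, with mean ± SD (n = 3). The 6 MCM genes stand between 11.3 and 17.2 FPKM with LPS and between 5.81 and 12.5 FPKM without, and Gins2 and Gins3 stand lowest.

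The factors that turn the ring into a moving helicase were less abundant. Cdc45 had 4.29, 3.78 and 4.63 FPKM in the LPS libraries, against 1.91, 2.86 and 2.46 FPKM in the untreated libraries, with separate groups and a 1.7-fold rise (adjusted p = 0.00644). Mcm10, which binds the assembled helicase and starts unwinding, averaged 3.26 ± 0.374 FPKM with LPS and 1.87 ± 0.423 FPKM without (SD, n = 3 each) and rose 1.69-fold (adjusted p = 0.00855). The 4 GINS subunits, also present as 1 copy each in their complex, differed in level. Gins1, which rose 1.91-fold (log2 fold change 0.94 ± 0.12 SE, adjusted p = 0.000569), had 6.26, 6.55 and 6.74 FPKM in the LPS libraries, against 3.09, 3.53 and 3.23 FPKM in the untreated libraries. Gins4 had 5.46, 6.59 and 6.24 FPKM in the LPS libraries, against 4.26, 4.29 and 5.3 FPKM in the untreated libraries. Its lowest LPS library was just above its highest untreated library, and its 1.28-fold rise (adjusted p = 0.0472) was lost in 9 of 17 alternatives, among them the exclusion of every single library but untreated replicate 3 (adjusted p up to 0.159). Gins2 rose 1.57-fold to 1.61 FPKM with LPS, against 0.990 FPKM without (adjusted p = 0.0102). Gins3 had 1.86, 1.32 and 1.63 FPKM in the LPS libraries, against 1.0, 1.44 and 1.01 FPKM in the untreated libraries. The groups overlapped and the gene did not pass (log2 fold change 0.44, 95% interval -0.04 to 0.91, adjusted p = 0.129), and its interval covers the changes of Gins2 and Gins4 but ends below that of Gins1. Gins2 shares 12570 bases with Emc8 on the same strand and Gins4 15173 bases with Golga7, so their counts depend on how reads were assigned.

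Of the 8 polymerase and primase genes 4 rose (50%, against 20.1% of all tested genes) and 4 did not pass. 3 of these 4 belong to polymerase alpha-primase, which makes the primers. Pola2, its regulatory subunit, had 5.67, 5.51 and 5.01 FPKM in the LPS libraries, against 2.82, 3.32 and 2.8 FPKM in the untreated libraries, and rose 1.75-fold (log2 fold change 0.81 ± 0.11 SE, adjusted p = 0.000663). The catalytic subunit Pola1 had 3.31, 2.88 and 2.66 FPKM in the LPS libraries, against 2.03, 2.45 and 2.63 FPKM in the untreated libraries. The LPS values lay just above the untreated ones, but the gene did not pass (log2 fold change 0.26, 95% interval -0.02 to 0.55, adjusted p = 0.132). The primase catalytic subunit Prim1 had 8.36, 7.88 and 8.18 FPKM in the LPS libraries, against 6.33, 7.25 and 7.58 FPKM in the untreated libraries, again with separate groups and no call (log2 fold change 0.16, 95% interval -0.03 to 0.34, adjusted p = 0.156). Prim2, the other primase subunit, had 4.54, 3.66 and 4.08 FPKM in the LPS libraries, against 3.75, 3.55 and 3.84 FPKM in the untreated libraries, with overlapping groups (log2 fold change 0.09, 95% interval -0.16 to 0.35, adjusted p = 0.545). The upper bounds for Pola1, Prim1 and Prim2 each exclude a rise as large as that of Pola2. The window of Pola2 held none of the E2F-type letters searched for, unlike those of Prim1 and Pola1, but other E2F-like letters were not searched for. Whether the letters bear on these changes was not tested.

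Among the replicative polymerases, Pole2, the second subunit of polymerase epsilon, had 1.43, 1.42 and 1.53 FPKM in the LPS libraries, against 0.764, 0.894 and 0.990 FPKM in the untreated libraries, the lowest level of all members. It rose 1.59-fold (adjusted p = 0.0126). The catalytic subunit Pole had 2.36, 2.43 and 2.51 FPKM in the LPS libraries, against 1.4, 1.66 and 1.98 FPKM in the untreated libraries, with separate groups. Its 1.4-fold rise (adjusted p = 0.0171) was lost without LPS replicate 2 or LPS replicate 3 (0.0562 and 0.0520). Pold1, the catalytic subunit of polymerase delta, averaged 5.23 ± 0.246 FPKM with LPS and 3.72 ± 0.419 FPKM without (SD, n = 3 each) and rose 1.36-fold (adjusted p = 0.00885). Pold2, its accessory subunit, was the most abundant gene of the group, at 10.1, 9.01 and 8.81 FPKM in the LPS libraries, against 7.94, 7.97 and 7.63 FPKM in the untreated libraries. The LPS values were all above the untreated ones by a small margin, and the gene did not pass (log2 fold change 0.20, 95% interval 0.01 to 0.39, adjusted p = 0.0939). It passed with limma on the FPKM values at either pseudocount (0.0254 and 0.0252).

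The sliding clamp Pcna, which holds polymerases on DNA, was among the most abundant members (ENSRNOG00000021264, chromosome 3 from 119498810 to 119502995 in mRatBN7.2). It had 34.4, 33.3 and 32.4 FPKM in the LPS libraries, against 23.5, 26.1 and 23.8 FPKM in the untreated libraries. The groups were far apart relative to their spread, and the rise was 1.32-fold (log2 fold change 0.40 ± 0.057 SE, adjusted p = 0.000950). Of the 5 subunits of RFC, the complex that loads the clamp, 4 rose, where 20.1% of all tested genes were called higher. Rfc5 had 6.62, 6.69 and 7.18 FPKM in the LPS libraries, against 3.7, 4.06 and 3.94 FPKM in the untreated libraries, and rose 1.69-fold (log2 fold change 0.76 ± 0.089 SE, adjusted p = 0.000406). Rfc2 rose 1.45-fold and Rfc4 1.43-fold, to 7.53 and 11.8 FPKM with LPS, against 5.00 and 7.92 FPKM without (adjusted p = 0.00732 and 0.00326).

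Rfc1, the large subunit, had 7.44, 7.43 and 7.82 FPKM in the LPS libraries, against 6.9, 6.17 and 6.13 FPKM in the untreated libraries. The difference was small, 1.14-fold (adjusted p = 0.0320), and the call was lost in 7 of 17 alternatives, among them the exclusion of every single library but untreated replicate 1 (adjusted p up to 0.113). Rfc3 had 10.0, 11.3 and 11.4 FPKM in the LPS libraries, against 6.75, 9.02 and 9.3 FPKM in the untreated libraries, with untreated replicate 1 low and the other untreated libraries close to the LPS ones. It did not pass (log2 fold change 0.33, 95% interval 0.03 to 0.64, adjusted p = 0.0789), but did with DESeq2 (0.0395) and with limma at either pseudocount (0.0392 and 0.0413).

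The single-strand binding complex RPA and the enzymes of Okazaki fragment joining rose in 4 of 5 cases (80%, against 20.1% of all tested genes). Rpa1, the large DNA-binding subunit, had 14.1, 13.6 and 12.9 FPKM in the LPS libraries, against 8.53, 9.62 and 9.37 FPKM in the untreated libraries, a 1.42-fold rise (adjusted p = 0.000531). Rpa2 had 10.8, 11.9 and 11 FPKM in the LPS libraries, against 7.41, 9.87 and 8.27 FPKM in the untreated libraries. Its 1.28-fold rise (adjusted p = 0.0392) was lost in 7 of 17 alternatives, among them the exclusion of every single library but untreated replicate 2 (adjusted p up to 0.132). Rpa3, the smallest subunit and the most abundant RNA of the 3, had 18.1, 17.2 and 19 FPKM in the LPS libraries, against 14.3, 16.6 and 14.4 FPKM in the untreated libraries. All LPS values lay above the untreated ones, but by little against the spread, and Rpa3 did not pass (log2 fold change 0.22, 95% interval -0.01 to 0.44, adjusted p = 0.116). It passed with limma at either pseudocount (0.0226 and 0.0231).

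Fen1, the nuclease that trims the flap at the start of each Okazaki fragment, had 7.37, 6.49 and 7.0 FPKM in the LPS libraries, against 3.65, 4.27 and 4.78 FPKM in the untreated libraries. It rose 1.59-fold (log2 fold change 0.66 ± 0.11 SE, adjusted p = 0.00240), the largest change of this group. Lig1, the ligase that seals the nick, had 14.2, 14.4 and 14.1 FPKM in the LPS libraries, against 8.38, 8.99 and 10.4 FPKM in the untreated libraries. The LPS values were tightly grouped and well above the untreated ones, and the rise was 1.49-fold (log2 fold change 0.57 ± 0.078 SE, adjusted p = 0.000792).

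All 6 genes of deoxynucleotide supply and maintenance methylation rose, where 20.1% of all tested genes were called higher. Their summed level was 142, 141 and 137 FPKM in the LPS libraries, against 68.5, 74.4 and 77.4 FPKM in the untreated libraries. Ribonucleotide reductase turns ribonucleotides into deoxynucleotides. Its small subunit Rrm2 (ENSRNOG00000054286, chromosome 6 from 41340557 to 41346773 in mRatBN7.2) was the most abundant member with LPS and had the largest change of all members. It had 49.7, 47.4 and 47.3 FPKM in the LPS libraries, against 20.4, 22 and 22.6 FPKM in the untreated libraries, so the lowest LPS library was more than 2 times the highest untreated one (log2 fold change 1.10 ± 0.057 SE, adjusted p = 2.81e-05). The large subunit Rrm1 had 36.6, 37.2 and 33.7 FPKM in the LPS libraries, against 19, 20.5 and 21.6 FPKM in the untreated libraries, and rose 1.7-fold (log2 fold change 0.77 ± 0.065 SE, adjusted p = 0.000117). Tk1, the cytosolic thymidine kinase of cycling cells, had 26.8, 28.3 and 27.5 FPKM in the LPS libraries, against 12.9, 14.2 and 14.3 FPKM in the untreated libraries. It rose 1.93-fold (log2 fold change 0.95 ± 0.056 SE, adjusted p = 4.15e-05).

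Tyms, thymidylate synthase, had 5.05, 3.6 and 5.15 FPKM in the LPS libraries, against 2.92, 2.58 and 3.15 FPKM in the untreated libraries. LPS replicate 2 was the lowest of its group and closest to the untreated libraries, and the 1.54-fold rise (adjusted p = 0.0114) was lost without LPS replicate 1 (0.0511). Dut, which removes dUTP before it can enter DNA, averaged 13.4 ± 0.257 FPKM with LPS and 7.91 ± 0.744 FPKM without (SD, n = 3 each) and rose 1.64-fold (adjusted p = 0.000495). Uhrf1, which brings the methyltransferase Dnmt1 to newly copied DNA, had 10.5, 11.4 and 10.3 FPKM in the LPS libraries, against 5.94, 7.46 and 6.93 FPKM in the untreated libraries, a 1.53-fold rise with separate groups (adjusted p = 0.000966).

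Because genes of 1 complex or step moved by different amounts, the ratio of FPKM values within each library was taken for 6 pairs, which were picked after their levels had been seen. Cdt1 over Gmnn was 0.429, 0.475 and 0.496 in the LPS libraries, against 0.545, 0.608 and 0.746 in the untreated libraries, so RNA of the loading factor was lower relative to that of its inhibitor in every LPS library. Rrm2 over Rrm1 was 1.36, 1.27 and 1.4 with LPS, against 1.07, 1.07 and 1.05 without. Rrm2 over Rrm2b, the small subunit known for its induction by p53, was 30.4, 30.8 and 26.2 with LPS, against 14.4, 13.6 and 13.8 without, and Rrm2b itself did not pass (log2 fold change 0.04, 95% interval -0.24 to 0.33, adjusted p = 0.805).

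Tk1 over Tk2, the mitochondrial thymidine kinase, averaged 8.53 ± 1.11 with LPS and 3.48 ± 0.301 without. Pola2 over Pola1 averaged 1.84 ± 0.110 with LPS and 1.27 ± 0.176 without, and Orc1 over Orc2 0.195 ± 0.0270 with LPS and 0.135 ± 0.0337 without (SD, n = 3 each). None of the 6 ratios overlapped between the groups. As the pairs were picked with their levels known, this describes them and is no support for a difference. The share of other gene pairs that would separate was not computed. The exact two-sided permutation test gave p = 0.1 for each, the smallest it allows with 3 against 3 libraries, and 0.1 after adjustment over the 6.

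Further genes that work with the replication machinery were looked up in 7 lists of 92 symbols. They gave 93 rows of the table, since Pole3 has 2, and 90 were tested. Of these 36 rose (40%, against 20.1% of all tested genes), 8 fell (8.89%, against 19%) and 46 did not pass. Their median was 0.22 on the log2 scale. Untreated values alone would not have carried 6 of the 90 through the filter on low values, and of these 6 Ticrr and E2f8 were called higher. Of the 8 tested origin firing factors, which act between licensing and the start of synthesis, 7 rose (87.5%). Mtbp and its partner Ticrr, which bring Cdc45 to the MCM ring, rose 1.64-fold and 1.6-fold, and the helicase gene Recql4 rose 1.64-fold (adjusted p = 0.00154, 0.00952 and 0.000719). Donson did not pass, at 2.78 ± 0.352 FPKM with LPS and 2.24 ± 0.303 FPKM without (SD, n = 3 each).

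**Figure D5:**
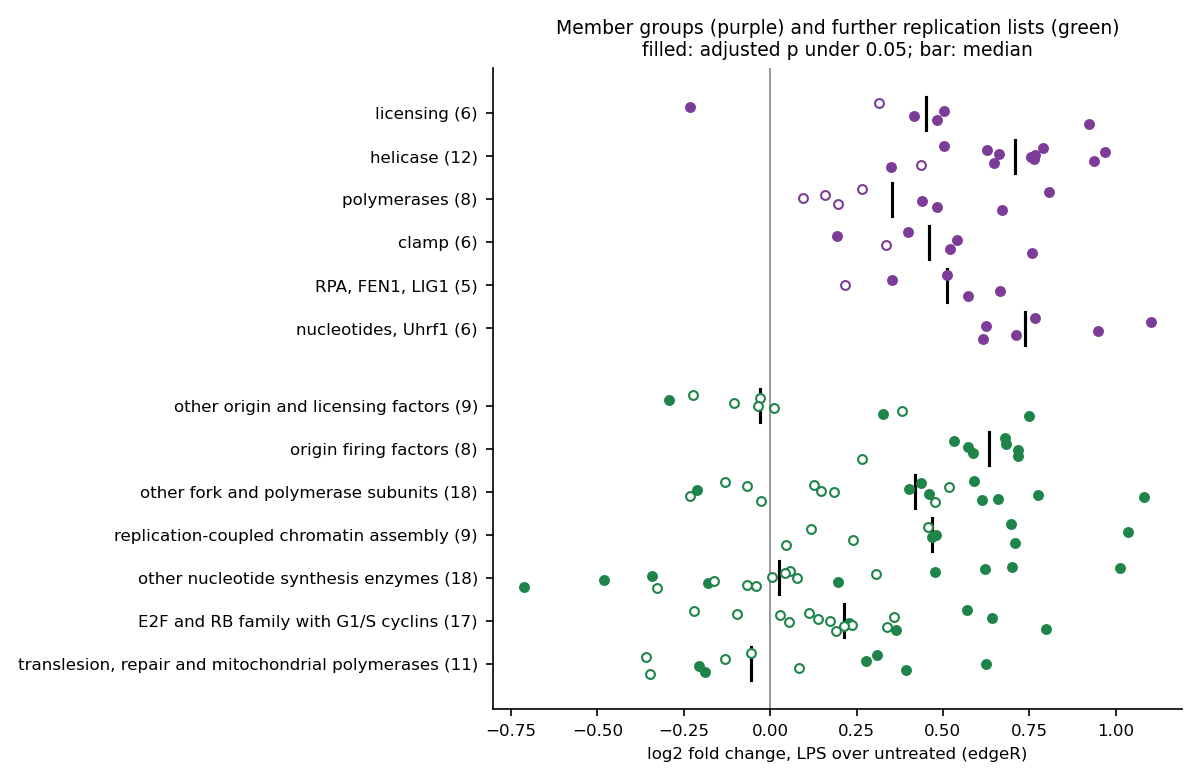
Log2 fold change, LPS over untreated, of the members by role group (purple) and of the tested genes of the 7 further lists (green), with the number tested in brackets. Filled points have an adjusted p under 0.05 and bars mark medians, which run from 0.35 to 0.74 in the member groups and from -0.06 to 0.63 in the further lists.

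Of 9 tested other origin and licensing genes 2 rose (22.2%) and 1 fell (11.1%), against 20.1% and 19% of all tested genes. Those that rose were Fbxo5 (1.68-fold, adjusted p = 0.00423), an inhibitor of the anaphase-promoting complex, and the ubiquitin ligase subunit Skp2 (1.25-fold, adjusted p = 0.0423), whose call was lost in 9 alternatives, among them leaving out any 1 library but LPS replicate 3. Orc5 had 5.59, 5.73 and 5.55 FPKM in the LPS libraries, against 6.59, 6.99 and 6.38 FPKM in the untreated libraries, and was 1.22-fold lower (adjusted p = 0.0182), a call lost without untreated replicate 2, LPS replicate 1 or LPS replicate 2. Orc4 and the acetyltransferase Kat7 did not pass, at 8.33 ± 0.595 FPKM with LPS and 8.21 ± 0.605 FPKM without for Orc4 and 14.9 ± 0.932 FPKM with LPS and 14.3 ± 0.320 FPKM without for Kat7 (SD, n = 3 each). Orc3, named here after its values were seen, had 5.98, 6.59 and 5.83 FPKM in the LPS libraries, against 7.25, 6.9 and 6.64 FPKM in the untreated libraries, and did not pass (log2 fold change -0.22, 95% interval -0.41 to -0.04, adjusted p = 0.0536), although it did in 4 alternatives. Of the 6 ORC genes Orc6 was thus called higher, Orc2 and Orc5 lower, and Orc1, Orc3 and Orc4 had no call.

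Of 18 tested further fork and polymerase rows 8 rose (44.4%) and 1 fell (5.56%), against 20.1% and 19% of all tested genes. Top2a, the topoisomerase of S phase and mitosis, rose 2.12-fold, the RNase H2 subunit Rnaseh2c 1.71-fold and Chtf18, part of an alternative clamp loader, 1.58-fold (adjusted p = 5.92e-05, 0.00956 and 0.00635). Pole4, a small subunit of polymerase epsilon, was 1.16-fold lower (adjusted p = 0.0334), a call lost on leaving out any 1 library. Chtf8 and Pold4 did not pass, at 18.7 ± 0.396 FPKM with LPS and 18.5 ± 0.737 FPKM without and 15.1 ± 1.09 FPKM with LPS and 15.3 ± 1.51 FPKM without (SD, n = 3 each). Of 9 tested genes of replication-coupled chromatin assembly 5 rose (55.6%) and 4 did not pass. The histone chaperone Asf1b rose 2.05-fold, Cdca7 1.63-fold and Chaf1a, the large subunit of CAF-1, 1.62-fold (adjusted p = 0.000213, 0.00299 and 0.00116). Asf1a, the paralogue of Asf1b, did not pass, at 5.29 ± 0.495 FPKM with LPS and 4.72 ± 0.307 FPKM without, nor did the histone mRNA-binding gene Slbp, at 19.7 ± 0.366 FPKM with LPS and 18.5 ± 0.889 FPKM without (SD, n = 3 each).

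Among 18 tested other enzymes of nucleotide synthesis 5 rose (27.8%), 4 fell (22.2%) and 9 did not pass. Of all tested genes 20.1% were called higher and 19% lower. Dctpp1, a dCTP pyrophosphatase, rose 2.02-fold, and deoxycytidine kinase (Dck) 1.54-fold (adjusted p = 0.00336 and 0.00134). Ppat, the first enzyme of purine synthesis, had 6.23, 5.76 and 5.82 FPKM in the LPS libraries, against 8.46, 10.1 and 9.69 FPKM in the untreated libraries. It was 1.64-fold lower (log2 fold change -0.71 ± 0.082 SE, adjusted p = 0.000365), with every LPS library below every untreated library. CTP synthase (Ctps1) was 1.4-fold lower, at 34.8 ± 1.35 FPKM with LPS and 46.9 ± 2.69 FPKM without, and the folate enzyme Shmt1 1.27-fold lower (adjusted p = 0.000446 and 0.0187), the Shmt1 call being lost without untreated replicate 2, LPS replicate 1 or LPS replicate 2. Atic and Impdh1, also of purine synthesis, did not pass, at 41.3 ± 0.489 FPKM with LPS and 41 ± 0.372 FPKM without and 24.2 ± 1.07 FPKM with LPS and 26.1 ± 2.67 FPKM without (SD, n = 3 each).

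Of 17 tested genes of the E2F and RB families and the G1/S cyclins 5 rose and 12 did not pass. The share that rose was 29.4%, against 20.1% of all tested genes. The S-phase cyclin Ccna2 rose 1.74-fold, the repressor E2f8 1.56-fold and the activator E2f1 1.48-fold (adjusted p = 0.000155, 0.0185 and 0.0342), the E2f1 call being lost without any 1 of the LPS libraries and that of E2f8 without LPS replicate 1 or LPS replicate 3. E2f4 and E2f6, the most abundant E2F genes, did not pass, at 17.3 ± 1.59 FPKM with LPS and 15.5 ± 0.995 FPKM without and 11.5 ± 0.409 FPKM with LPS and 10.9 ± 0.531 FPKM without (SD, n = 3 each). Another list held DNA polymerases of translesion synthesis, repair and mitochondria, with accessory subunits such as Mad2l2. These polymerases copy DNA outside the replication fork or bypass damage. Of the 11 genes tested 4 were higher (36.4%) and 2 lower (18.2%), against 20.1% and 19% of all tested genes. The median of these genes was -0.06 on the log2 scale. Polm rose 1.54-fold, Mad2l2 1.31-fold and Polh 1.24-fold (adjusted p = 0.00447, 0.0122 and 0.0393, the Polh call being lost without untreated replicate 2, untreated replicate 3, LPS replicate 1 or LPS replicate 2). Rev1 was 1.15-fold and the mitochondrial polymerase Polg 1.14-fold lower (adjusted p = 0.0284 and 0.0118), and both calls were lost with limma at either pseudocount. Leaving out LPS replicate 2, LPS replicate 3 or untreated replicate 3 also ended the Rev1 call. The repair polymerase Polb did not pass, at 5.51 ± 0.200 FPKM with LPS and 5.54 ± 0.428 FPKM without (SD, n = 3 each), and neither did Rev3l, at 2.69 ± 0.227 FPKM with LPS and 2.46 ± 0.157 FPKM without.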

How the data were processed

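The deposited table lists 19266 genes with 2 units per library. Per the file headers, the authors gave FPKM values (fragments per kilobase per M fragments) and counts. The values deposited by the authors as counts were treated as an estimated count per gene (expected count), and rounding before the test changed nothing, as they were whole. From 31.9% to 32.9% of values between 1 and 40 were multiples of 4, where 25% would be even. Most of these values were thus not multiples of 4, and taking 1 fragment as about 4 units is an assumption. The build mRatBN7.2 and the tools StringTie 2.1.6, HISAT2 2.2.1, edgeR, DESeq2 and cutadapt 1.9 are named per the submitters' processing notes, without their roles. The sources used here do not give the annotation release, the strand setting or how counts were derived.

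The 11559 genes that reached 1 FPKM in 3 or more libraries were tested with edgeR 4.0.16 (TMM factors, glmQLFit, glmQLFTest, group as the only term) in R 4.3.3, with Benjamini-Hochberg adjustment over all of them and a threshold of 0.05. Adjusted p-values come from this edgeR test except where a sentence names another tool. Standard errors were computed as the absolute log2 change over the root of the F statistic, and 95% intervals use the fit's degrees of freedom. The intervals are not adjusted for the number of genes tested. An interval can therefore lie wholly above or below no change in a gene that did not pass. The test was run on simulated counts with the same spread for every gene and no outlying library. That check therefore does not speak to the scatter of these libraries. Means ± SD are of FPKM over 3 libraries. The 17 alternatives used DESeq2 1.42.0, limma 3.58.1 (pseudocounts 1 and 0.1), other scalings and filters, a replicate block, counts divided by 4 and leaving out each library.

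The members and lists were chosen with earlier results of these data known. Values in every library are given, in each role group, for the most abundant member, those with the largest and smallest change, those that did not pass and those whose call changed. Of each further list up to 3 called genes per direction with the largest change and up to 2 abundant genes without a call are named, apart from items that are not reported here. Promoter sequences are RefSeq's, of GRCr8. Gene coordinates are the deposited ones. Permutation tests used scipy 1.17.1, and tables pandas 2.3.3, numpy 2.4.6 and Python 3.11.15.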

Additional observations from a re-analysis of the deposited data

How the results depend on the processing

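No called member changed direction in the 17 alternatives. Over 717 member results under 17 alternatives, 665 kept their side of the threshold, 44 lost a call and 8 gained one. The count of members higher lay between 28 and 37 where all 43 were tested, and was 24 of the 29 tested with the FPKM filter of at least 5. The count of members lower, 1 (Orc2), became 0 with no filter on low values, with limma on log2(FPKM + 1) and with limma on log2(FPKM + 0.1), and lay between 0 and 1 on leaving out single libraries. The count of further genes higher, 36, became 18 with the FPKM filter of at least 5, which left 46 of them tested, and the count lower, 8, became 5 with limma at either pseudocount and lay between 5 and 8 on leaving out single libraries. The cause was not tested, beyond the fewer genes tested under the stricter filter. Over all genes the share of calls that were higher was 51.3%, against 63.3% with limma on log2(FPKM + 1) and 44.3% when the 50 most abundant genes were left out of the library sizes. No scaling moved the median log2 fold change of all genes by more than 0.05, and that of the members lay between 0.45 and 0.63.

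The main test did not pair the libraries by replicate number, and whether the numbers mark pairs was not tested. Deviations from the group means correlated at 0.04, 0.08 and 0.09 for same-numbered libraries and at -0.099 to 0.0174 for the others. Every library correlated best with its own number, which is a hint from the data. With the replicate block 33 members were higher and 1 lower, Rfc3 passed (adjusted p = 0.0381), and Orc6 and Cdc6 did not (0.0541 and 0.0571). All members had at least 140 count units in every library.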
